A study of Rattus norvegicus with 12 samples.

Results

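H3K27ac, acetylation of lysine 27 of histone H3, was profiled by CUT&Tag in primary vascular smooth muscle cells (VSMCs) of Rattus norvegicus. The series holds 12 libraries over 3 histone marks, and the 4 libraries described here are those whose treatment label names H3K27ac. They are 2 libraries labelled NC (NC 1 and NC 2) and 2 labelled SIANK (SIANK 1 and SIANK 2). Together they list 36914 of the 94690 peaks of the series. All 4 share the cell type and the mark and differ in the rest of the treatment label, NC or SIANK. Neither abbreviation is spelled out in the sources used here. The age and sex of the rats, and whether the numbered libraries came from separate cultures or animals, are not given in those sources, so p-values measure only the spread between these libraries. The title places the work in aneurysmal aortas and names the targets of the 3 marks as its question. The cell type could not be checked against marker genes, because the annotation at hand was for another assembly: 1043 of the peaks, on 15 chromosomes, lay past the last annotated GRCr8 gene.

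VSMCs are the contractile cells of the arterial wall, and in aneurysm they can lose contractile gene expression. In CUT&Tag an antibody on a chromatin mark brings in a transposase that cuts and tags the DNA beside it. H3K27ac is written by acetyltransferases of the CBP family, removed by histone deacetylases and read by bromodomain proteins. It sits at active promoters and enhancers, where it is used to tell active from poised enhancers, and long runs of it mark clustered enhancers of cell identity genes. A peak is a stretch that a caller set apart from the background, and a longer peak means that signal passed the caller's threshold over more bases. The libraries are bulk, so a mark on fewer cells and a weaker mark on every cell cannot be told apart.

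The lists differed far more between replicate numbers than between conditions. NC 1 listed 2644 peaks, SIANK 1 listed 4823, NC 2 listed 14034 and SIANK 2 listed 15413. Both number 1 lists were shorter than both number 2 lists, so the conditions overlapped: SIANK 1 lay below NC 2. Peaks covered 1.87 Mb in NC 1, 3.92 Mb in SIANK 1, 13.5 Mb in NC 2 and 15.1 Mb in SIANK 2. The number 2 list held 5.31 times as many peaks as the number 1 list in NC and 3.2 times as many in SIANK.

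Peaks of the number 2 lists were also longer. The median peak length was 607.5 bp in NC 1, 684 bp in SIANK 1, 790.0 bp in NC 2 and 782 bp in SIANK 2. The 90th percentile of length was 1156 bp in NC 1, 1347 bp in SIANK 1, 1721 bp in NC 2 and 1787 bp in SIANK 2. The shortest peak listed was 343 bp in NC 1, 355 bp in SIANK 1, 315 bp in NC 2 and 313 bp in SIANK 2. Whether this floor on peak length bears on the lengths below was not tested. The lists carry no read counts, heights or scores, so the depth behind them is unknown.

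Within each number the SIANK list was the longer one, and by very different amounts. SIANK 1 had 1.82 times the peaks of NC 1 and 2.09 times their covered length. SIANK 2 had 1.10 times the peaks of NC 2 and 1.12 times their covered length. Over the 4 libraries the log2 ratio of peak number, SIANK over NC, was 0.50 with a standard error of 1.47. The exact two-sided permutation test of condition labels gave p = 0.667, and a design of 2 against 2 cannot go below 0.333. Without NC 1 the log2 ratio was −0.70 and without SIANK 2 it was −0.34. With 1 library left out the replicate numbers were unbalanced between the conditions, and list size went with the number. Within number 1 the log2 ratio was 0.87, and within number 2 it was 0.14.

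The extra covered length within a number was made up differently in the 2 numbers. SIANK 1 covered 2.04 Mb more than NC 1. Of this, 1.44 Mb lay in regions with no NC 1 peak, against 0.0753 Mb in regions with an NC 1 peak alone. A further 0.674 Mb was added by longer or additional peaks at regions both lists held. In number 2 the net difference was 1.57 Mb. There 1.76 Mb lay in regions of SIANK 2 alone and 0.900 Mb in regions of NC 2 alone, and 0.714 Mb was added at regions both lists held.

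Merging peaks that overlapped by at least 1 bp gave 17378 H3K27ac regions. The most frequent makeup was a peak in both number 2 lists and in neither number 1 list, at 7748 regions (44.6%). All 4 lists held 2214 regions (12.7%). Another 1794 regions were held by every list but NC 1, whereas 80 were held by every list but SIANK 1. SIANK 2 alone held 3081 regions, NC 2 alone 1684, SIANK 1 alone 269 and NC 1 alone 45. Region length went with the number of lists: the median was 457 bp for regions of 1 list, 940.0 bp for 2, 1270 bp for 3 and 1480.5 bp for all 4. A region spans all peaks merged into it, so regions of more lists tend to be longer by construction.

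**Figure D1:**
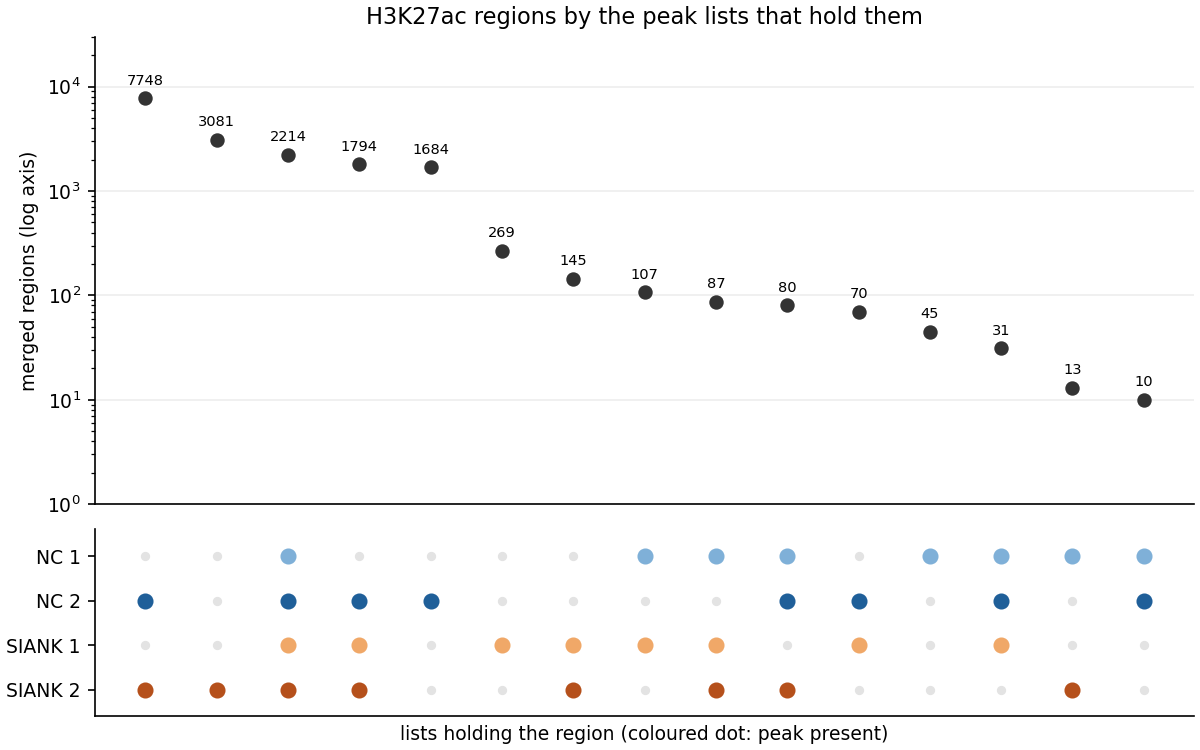
Number of merged H3K27ac regions (vertical axis, log scale) for each of the 15 combinations of lists that hold them. Coloured dots in the lower panel mark the lists with a peak. The 7748 regions of both number 2 lists outnumber the 2214 of all 4 lists, the 145 of both SIANK lists alone and the 10 of both NC lists alone.

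Within number 1 the NC list was almost contained in the SIANK list. Of 4865 regions held by either list, 2439 were held by both, 2278 by SIANK 1 only (46.8%) and 148 by NC 1 only (3.04%). Of the NC 1 peaks, 94.4% (exact 95% binomial interval 93.4 to 95.2, counting error only) met a SIANK 1 peak, against 51.9% (50.5 to 53.3) of SIANK 1 peaks that met one in NC 1. The SIANK 1 peaks at the SIANK-only regions were short, with a median of 545 bp, against 885 bp at the regions shared with NC 1. Merging only the number 1 lists instead gave 2366 SIANK-only and 152 NC-only regions.

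Most regions that SIANK 1 held and NC 1 did not were present in both number 2 lists. Of those 2278 regions, 1794 (78.8%, interval 77.0 to 80.4) had a peak in NC 2 and in SIANK 2. The share was higher, at 90.8% (89.6 to 91.9), for the 2439 regions held by both number 1 lists. Another 269 (11.8%) had neither, 145 (6.37%) had SIANK 2 alone and 70 (3.07%) had NC 2 alone. Where a number 2 list had a peak at these regions, it was not short. The median was 1060 bp in NC 2 and 1073 bp in SIANK 2, at percentiles 67.9 and 68.2 of the respective list. Regions without a peak in the list do not enter its median. The 148 regions of NC 1 without SIANK 1 had both number 2 lists at 80 (54.1%), neither at 45, SIANK 2 alone at 13 and NC 2 alone at 10.

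Within number 2 the lists resembled each other more closely, and both had regions of their own. Of 16957 regions held by either list, 11836 (69.8%) were held by both, 3326 by SIANK 2 only (19.6%) and 1795 by NC 2 only (10.6%). The regions of 1 list were short on both sides, with a median peak of 468 bp in SIANK 2 and 442 bp in NC 2, against 931 and 878 bp at regions of both. Few of them recurred in number 1: 92.6% of the SIANK 2-only and 93.8% of the NC 2-only regions had no peak in either number 1 list. Of the 11836 regions of both number 2 lists, 65.5% had none there either. The SIANK 2-only regions met SIANK 1 alone at 145 (4.36%) and NC 1 alone at 13 (0.391%). The NC 2-only regions met SIANK 1 alone at 70 (3.90%) and NC 1 alone at 10 (0.557%). In both sets SIANK 1, the longer of the number 1 lists, was met more often than NC 1.

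The excess of SIANK-only regions moved with the length of the lists. When the longer list of each number was held to its longest peaks, as many as the shorter list holds, number 1 had 745 SIANK-only and 726 NC-only regions. Number 2 then had 2462 and 2260. Lists of equal size draw the sides together by construction, and the depth that set the list sizes is unknown.

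How often a peak was found again went with its length. As 1 bp of overlap was enough to merge peaks, longer peaks tend to meet another list more often by construction. In number 1, 15.9% of the shortest decile of SIANK 1 peaks (median 382 bp) met an NC 1 peak, and 87.4% of the longest decile (median 1642 bp) did. In number 2, 38.3% of the shortest decile of SIANK 2 peaks and 99.7% of the longest met an NC 2 peak. In the other direction 57.4% of the shortest and 100% of the longest decile of NC 2 peaks met a SIANK 2 peak. The longest deciles of the number 2 lists were thus held almost fully by both conditions.

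Across numbers, length did not secure a match. Only 4.42% of the shortest decile of NC 2 peaks met an NC 1 peak, and 38.2% of the longest decile did (interval 35.7 to 40.8), although those peaks had a median of 2139 bp. For SIANK 2 peaks in the SIANK 1 list the shares were 9.86% and 59.0% (56.5 to 61.5). The reverse shares were high at every length: 85.3% of the shortest and 98.5% of the longest decile of NC 1 peaks met an NC 2 peak, and 83.6% and 97.1% of SIANK 1 peaks met a SIANK 2 peak.

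**Figure D2:**
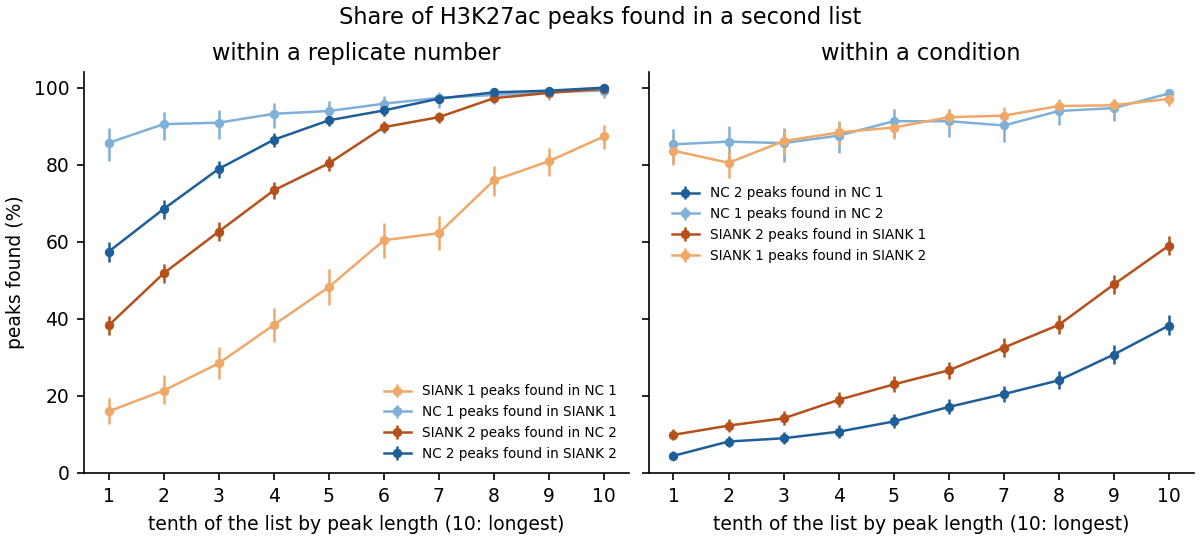
Percent of the peaks of a list that overlap a peak of a second list (vertical axis), by length decile of the first list from its shortest to its longest peaks (horizontal axis), with exact 95% binomial intervals. Within number 2 the longest deciles reach 99.7% and 100%, while only 38.2% of the longest NC 2 peaks are found in NC 1.

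The number 2 lists contained long regions with no peak in number 1. On chromosome 3 from 160877612 to 160883950, a region of 6339 bp, NC 2 had a peak of 5864 bp and SIANK 2 one of 6081 bp. On chromosome 10 from 82754084 to 82760869 NC 2 had 2 peaks of 5570 bp in sum and SIANK 2 a single peak of 6786 bp. Peaks on chromosome 8 from 48808462 to 48813256 were almost identical, at 4793 bp in NC 2 and 4795 bp in SIANK 2. All 5 top-ranked regions of this kind carried H3K23ac, acetylation of lysine 23 of histone H3, in all 4 libraries of that mark. That held for 52.2% of the 7748 regions of the number 2 lists only and for 42.9% of all regions. The build of these and all other coordinates is not given in the sources used here.

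Only 107 regions went the other way, with a peak in both number 1 lists and in neither number 2 list. The top one lay on chromosome 4 from 41363145 to 41364804, with 1206 bp in NC 1 and 1660 bp in SIANK 1 and no H3K23ac in any library. The next, on chromosome 8 from 84945230 to 84946665, had 1095 bp in NC 1, 1436 bp in SIANK 1 and H3K23ac in SIANK 2 alone. In all 5 top-ranked regions the SIANK 1 peak was the longer one. So it was at 86.2% of the 2348 regions with 1 peak in both number 1 lists. Of the 5, 3 carried no H3K23ac in any library. Over all 107 regions 60.7% carried it in at least 1 library.

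Regions gained in SIANK, with a peak in SIANK 1 and SIANK 2 and in neither NC list, numbered 145 of 17378 (0.834%). Regions lost, with the reverse makeup, numbered 10 (0.0575%). Leaving a library out drops its requirement from both definitions, so the counts tend to rise by construction. Without NC 1 there were 232 gained and 1696 lost, and without NC 2 there were 1937 and 56. Without SIANK 1 there were 3245 and 40, and without SIANK 2 429 and 88. With the lists of each number held to equal size, 32 regions were gained and 35 lost. With all 4 lists held to the size of the shortest, 65 were gained and 33 lost, so the excess of gains was smaller under the latter and absent under the former. Gained peaks were among the shorter ones of their lists. Their median was 513 bp in SIANK 1 and 514 bp in SIANK 2, at percentiles 26.7 and 24.9 of length. Lost peaks had a median of 468.5 bp in NC 1 and 462.5 bp in NC 2.

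Among the 10 top-ranked gained regions, all had H3K23ac in at least 1 library and none had H4K5ac, acetylation of lysine 5 of histone H4. Over all 145 gained regions H3K23ac of any library was listed at 89.7%, and over all 17378 regions at 89.9%, so the top 10 are near the background. H4K5ac of any library was listed at 7.05% of all regions. On chromosome 9, between 98198362 and 98199364, SIANK 1 had 1003 bp and SIANK 2 had 878 bp, in a region that lay 3.62 kb from a region that all 4 lists held. On chromosome 16 from 21379061 to 21380393 the SIANK 2 peak spanned 1333 bp and the SIANK 1 peak 681 bp, and H3K23ac was listed in all 4 of its libraries. On chromosome 10 from 88967267 to 88968374 the peaks were 686 bp in SIANK 1 and 1108 bp in SIANK 2, with H3K23ac in NC 1, SIANK 1 and SIANK 2. The region on chromosome 6 from 126170818 to 126171624, with 745 and 807 bp, carried H3K23ac in SIANK 1 alone. No gained region of the top 10 was longer than 1333 bp.

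The 10 lost regions ranged from 347 to 972 bp. On chromosome 17 from 19701393 to 19702145 the peaks were 677 bp in NC 1 and 607 bp in NC 2. On chromosome 2 from 52672350 to 52673283 they were 934 bp and 457 bp, and H3K23ac was listed there in SIANK 1 and SIANK 2 only. The lowest-ranked lost region, on chromosome 1 from 137199745 to 137200091, had 344 bp in NC 1 and 321 bp in NC 2, close to the shortest peaks of those lists, and no H3K23ac. H3K23ac was listed at 8 of the 10 and H4K5ac at none, against 89.9% and 7.05% of all regions.

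Where both lists of a number held a single peak, the SIANK peak was longer in number 1 and nearly equal in number 2. At 2348 such regions of number 1 the median length was 622 bp in NC 1 and 871 bp in SIANK 1. The median log2 ratio was 0.35 (interval of the median over regions 0.33 to 0.37), and SIANK 1 was the longer at 86.2% of regions. At 11270 such regions of number 2 the median length was 862 bp in NC 2 and 911 bp in SIANK 2. The median log2 ratio was 0.05 (0.04 to 0.06), with SIANK 2 the longer at 57.0% of regions. These intervals are over regions and leave out the spread between libraries.

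Differences of at least 1.5 times were mostly towards longer SIANK peaks, with a wider margin in number 1. There, 735 of 2348 regions (31.3%) were longer in SIANK by at least 1.5 times and 20 (0.852%) were shorter. In number 2, 1472 of 11270 (13.1%) were longer and 885 (7.85%) shorter. The number 2 ratio was small at every length: the median log2 ratio was 0.07 in the lowest length quartile of regions and 0.04 in the highest. In number 1 it was 0.31 in the lowest quartile, 0.45 in the next and 0.27 in the highest.

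The 1998 regions where every list had exactly 1 peak allow the same places to be set side by side. Their geometric mean length was 661 bp in NC 1, 881 bp in SIANK 1, 1144 bp in NC 2 and 1184 bp in SIANK 2. SIANK 1 thus lay above NC 1 and below both number 2 libraries. The log2 ratio of SIANK over NC was 0.23 with a standard error of 0.45, and the exact two-sided permutation test gave p = 0.667 (smallest possible 0.333). With a library left out, the regions were chosen anew, as those with 1 peak in each remaining list, so they are not the same 1998. Without NC 1 the log2 ratio was −0.26, and without NC 2, SIANK 1 and SIANK 2 it was 0.63, 0.45 and 0.03. A changed set of regions and the missing library cannot be told apart in these values.

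At these regions the 2 numbers showed little relation. Over the 1998 regions the log2 ratio of number 1 and that of number 2 had Pearson's r = 0.06 and Spearman's rho = 0.05. The points share the 4 libraries, with no library in both ratios. SIANK was longer in both numbers at 985 regions (49.3%), in number 1 alone at 740, in number 2 alone at 143 and in neither at 130. Of the 601 regions longer by 1.5 times in number 1, 70 (11.6%) were so in number 2 as well. There 26 (4.33%) were shorter by 1.5 times and 505 lay in between. Over all 1998 regions, 7.51% were longer and 5.56% shorter by 1.5 times in number 2. The 70 regions longer in both are 3.5% of the 1998, and 1 region (0.0501%) was shorter by 1.5 times in both.

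**Figure D3:**
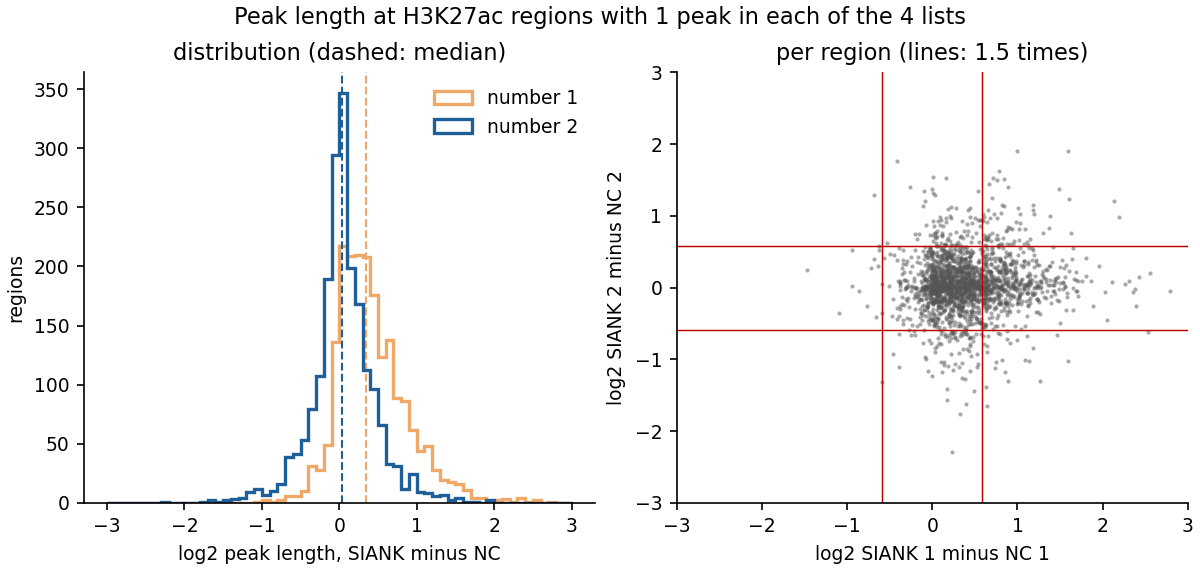
Left, number of regions (vertical axis) by log2 ratio of peak length, SIANK over NC (horizontal axis), for number 1 and number 2 at the 1998 regions with 1 peak in each list. Right, the ratio of number 1 against that of number 2 per region, with lines at 1.5 times. Number 1 is shifted to longer SIANK peaks (median 0.34) and number 2 is centred near 0 (median 0.03), and few points pass the line in both.

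The 5 regions with the highest length ratios in both numbers had NC peaks of 333 to 737 bp. On chromosome 3 from 147042591 to 147044064 the peak was 347 bp in NC 1, 1045 bp in SIANK 1, 393 bp in NC 2 and 1474 bp in SIANK 2, with log2 ratios of 1.59 and 1.91. On chromosome 13 from 79954683 to 79956208 it was 362 bp in NC 1, 1014 bp in SIANK 1, 589 bp in NC 2 and 1526 bp in SIANK 2. On chromosome 17 from 31493004 to 31495037 the lengths were 667 bp in NC 1, 2034 bp in SIANK 1, 649 bp in NC 2 and 1532 bp in SIANK 2. At each of these both SIANK peaks were longer than both NC peaks. The same lengths chose the regions, so this is no separate result.

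The other regions of this group had both SIANK peaks above both NC peaks as well. On chromosome 2 from 188399231 to 188401054 the lengths were 348 bp in NC 1, 1525 bp in SIANK 1, 737 bp in NC 2 and 1704 bp in SIANK 2. On chromosome 10 from 64235622 to 64236507 they were 358, 814, 333 and 742 bp in the same order of libraries. Of the 5 regions, 4 had H3K23ac in every library of that mark, and the last had it in NC 2 and SIANK 2. These 5 were chosen for their length ratios, so the values are a description.

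Over the 70 regions longer in both numbers, the median peak went from 476 bp in NC 1 to 925.5 bp in SIANK 1 and from 596.5 bp in NC 2 to 1186.5 bp in SIANK 2. These lengths chose the 70. H3K23ac lengths did not enter the choice. At the members with H3K23ac peaks in both lists of a number, the median log2 ratio of H3K23ac length, SIANK over NC, was 0.13 in number 1 (51 regions) and 0.50 in number 2 (54 regions). Over the 1998 regions the same medians were 0.07 (1740 regions) and 0.36 (1801 regions). Over all regions they were 0.10 and 0.40, and over regions of every list but NC 1 they were 0.13 and 0.39. At gained regions they were 0.03 (30 regions) and 0.49 (20 regions). Whether the 70 differ from these sets was not tested.

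Shorter SIANK peaks in both numbers were rarer and the ratios smaller. On chromosome 3 from 164963477 to 164965389 the peak was 1019 bp in NC 1, 674 bp in SIANK 1, 1861 bp in NC 2 and 744 bp in SIANK 2. This is the region past 1.5 times in both numbers. On chromosome 4 from 123400836 to 123402008 the lengths were 618 bp in NC 1, 448 bp in SIANK 1, 1173 bp in NC 2 and 618 bp in SIANK 2. There the conditions touched, since NC 1 and SIANK 2 were equally long.

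The ends of the peaks showed the number 1 difference on both sides. At 1485 of 2348 number 1 regions (63.2%) the SIANK 1 peak reached beyond the NC 1 peak at both ends, and at 79 (3.36%) it lay inside it. The median extension was 70 bp at the lower-coordinate end and 72 bp at the other, with a median midpoint shift of 56 bp. In number 2 the SIANK peak reached beyond at both ends at 28.6% of regions and lay inside at 16.2%, and the median extensions were 5 and 6 bp. NC 2 more often split a region: it had more peaks than SIANK 2 at 331 of 11836 shared regions (2.80%) and fewer at 186 (1.57%). In number 1 NC had more peaks at 31 and SIANK at 43 of 2439.

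Broad peaks were mostly in the number 2 lists. Peaks of at least 3 kb numbered 1 in NC 1, 19 in SIANK 1, 194 in NC 2 and 284 in SIANK 2. They made up 0.169% of the covered length in NC 1, 1.81% in SIANK 1, 5.63% in NC 2 and 7.45% in SIANK 2. SIANK held more of them in both numbers, and SIANK 1 stayed below NC 2.

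The longest region held by all 4 lists lay on chromosome 1 from 221199387 to 221209803. Its summed peak length was 3569 bp in NC 1, 6849 bp in SIANK 1, 10347 bp in NC 2 and 10064 bp in SIANK 2. The next, on chromosome 10 from 73898402 to 73907754, had 2301 bp in NC 1, 4512 bp in SIANK 1, 7716 bp in NC 2 and 9018 bp in SIANK 2. On chromosome 11 from 72445526 to 72454848 NC 1 had 494 bp and SIANK 1 1905 bp against 8844 bp in NC 2 and 9054 bp in SIANK 2. On chromosome 1 from 221154744 to 221162747 the lengths were 3116 bp in NC 1, 5191 bp in SIANK 1, 6529 bp in NC 2 and 7789 bp in SIANK 2. On chromosome 1 from 267077438 to 267085249 the lengths were 746, 1948, 7648 and 7812 bp in the order NC 1, SIANK 1, NC 2 and SIANK 2. At all 5 of these domains SIANK 1 covered more than NC 1, with log2 ratios from 0.74 to 1.95, while number 2 ratios ran from −0.04 to 0.25. SIANK 1 was also the longer at 86.2% of the 2348 regions with 1 peak in both number 1 lists.

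At 2 broad domains on chromosome 9 the number 1 difference was smaller. On chromosome 9 from 27186541 to 27192503 the lengths were 2308 bp in NC 1 and 2685 bp in SIANK 1, and 5962 bp in NC 2 and 5442 bp in SIANK 2. On chromosome 9 from 65534224 to 65537591 they were 2300 and 2591 bp in number 1 and 3336 and 3301 bp in number 2. The longest H3K27ac region of any kind, on chromosome 18 from 55887486 to 55898424 (10939 bp), was singled out after its values were seen. It had no peak in NC 1, 3 peaks of 4412 bp in sum in SIANK 1, and peaks of 10628 bp in NC 2 and 10498 bp in SIANK 2.

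Over chromosomes 1 to 20 the SIANK list held more peaks than the NC list on every chromosome, in both numbers. In number 1 the ratio ran from 1.6 on chromosome 2 (353 against 220 peaks) to 2.04 on chromosome 19 (155 against 76). In number 2 it ran from 1.06 on chromosome 19 (490 against 463) to 1.15 on chromosome 20 (480 against 416). The 95% interval of the ratio, for counting error only, held the ratio of the whole list on all 20 chromosomes in each number. The chromosome with the highest ratio in number 1 thus had the lowest in number 2.

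The share of a list that fell on each chromosome was almost the same in NC 2 and SIANK 2. The mean absolute difference over the 20 chromosomes was 0.0773 percentage points, and the largest was 0.158 points, on chromosome 3. Between NC 1 and SIANK 1 the mean was 0.286 points and the largest 1.00 points, on chromosome 2. Between numbers the mean was 0.405 points in NC and 0.291 points in SIANK. The shorter lists have wider counting intervals, and the intervals of NC 1 and SIANK 1 overlapped on all 20 chromosomes.

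On chromosome 2 the share of NC 1 stood apart from those of the number 2 lists. It held 8.32% of NC 1 peaks (7.30 to 9.44), 7.32% of SIANK 1 peaks (6.60 to 8.09), 6.48% of NC 2 peaks (6.08 to 6.90) and 6.38% of SIANK 2 peaks (6.0 to 6.78). The NC 1 interval lay above those of NC 2 and SIANK 2, and overlapped that of SIANK 1. The intervals of SIANK 1 and SIANK 2 overlapped, and no other chromosome separated NC 1 from NC 2. On chromosome 10 both number 1 shares were below both number 2 shares, with 8.02% in NC 1, 7.55% in SIANK 1, 8.65% in NC 2 and 8.54% in SIANK 2, and there the intervals overlapped. The median peak was longer in SIANK 1 than in NC 1 on 19 of 20 chromosomes, the exception being chromosome 15 (686 bp in NC 1, 622 bp in SIANK 1). SIANK 2 had the longer median on 9 of 20 in number 2.

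**Figure D4:**
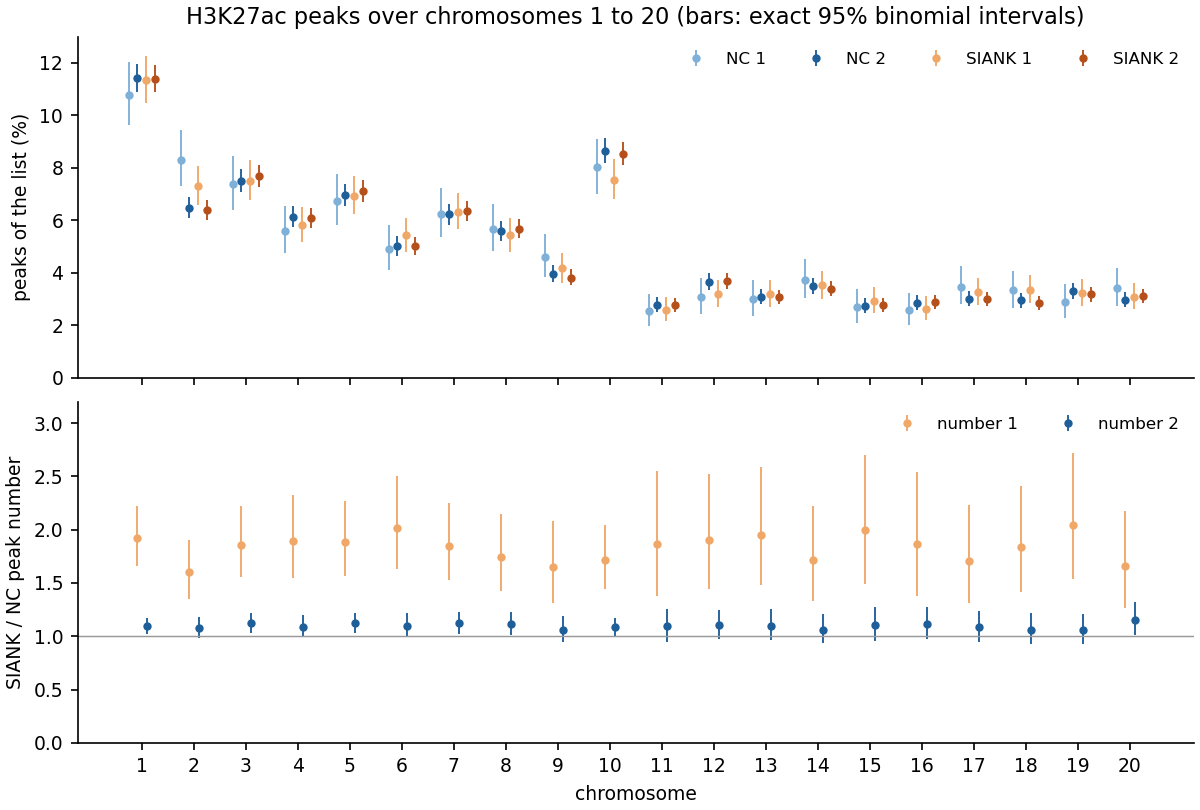
Upper panel, percent of each list's peaks on chromosomes 1 to 20. Lower panel, ratio of SIANK over NC peak number per chromosome within each number, with exact 95% binomial intervals and a line at 1. All 20 number 1 ratios lie between 1.6 and 2.04 and all 20 number 2 ratios between 1.06 and 1.15.

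Gained regions were spread over all 20 chromosomes, with 2 on chromosome 16 and 16 on chromosome 1. As a share of the regions of a chromosome they ran from 0.396% on chromosome 16 to 1.70% on chromosome 17 (9 of 529). The 10 lost regions lay on 5 chromosomes, 3 of them on chromosome 1, 3 on chromosome 2 and 2 on chromosome 17.

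H3K23ac lists of the same cell type and conditions give a readout that did not enter these sets. They hold 12909 peaks in NC 1, 14356 in SIANK 1, 10720 in NC 2 and 17141 in SIANK 2, so a region meets H3K23ac of SIANK 2 more often than that of the others. At the H3K27ac regions of all 4 lists H3K23ac was present at 91.9% in NC 1, 93.0% in SIANK 1, 90.7% in NC 2 and 99.4% in SIANK 2. At the regions of the number 2 H3K27ac lists only, the same shares were 71.0%, 76.6%, 71.7% and 95.2%. At regions of SIANK 2 alone, which also lack number 1 H3K27ac, H3K23ac was present at 20.03% in NC 1 and 33.1% in SIANK 1, and at regions of NC 2 alone at 23.2% and 30.2%.

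At gained H3K27ac regions H3K23ac was present at 35.2% in NC 1, 49.7% in SIANK 1, 17.2% in NC 2 and 80.7% in SIANK 2. In number 2 the SIANK share was also the higher one at regions that a single H3K27ac list held. At the regions of SIANK 2 alone H3K23ac was present at 16.4% in NC 2 and 57.6% in SIANK 2, and at those of NC 2 alone at 15.2% and 60.2%. Over all 17378 regions H3K23ac was present at 59.5% in NC 1, 65.8% in SIANK 1, 57.7% in NC 2 and 84.4% in SIANK 2. H4K5ac of any library was listed at 4 of the 145 gained regions (2.76%).

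**Figure D5:**
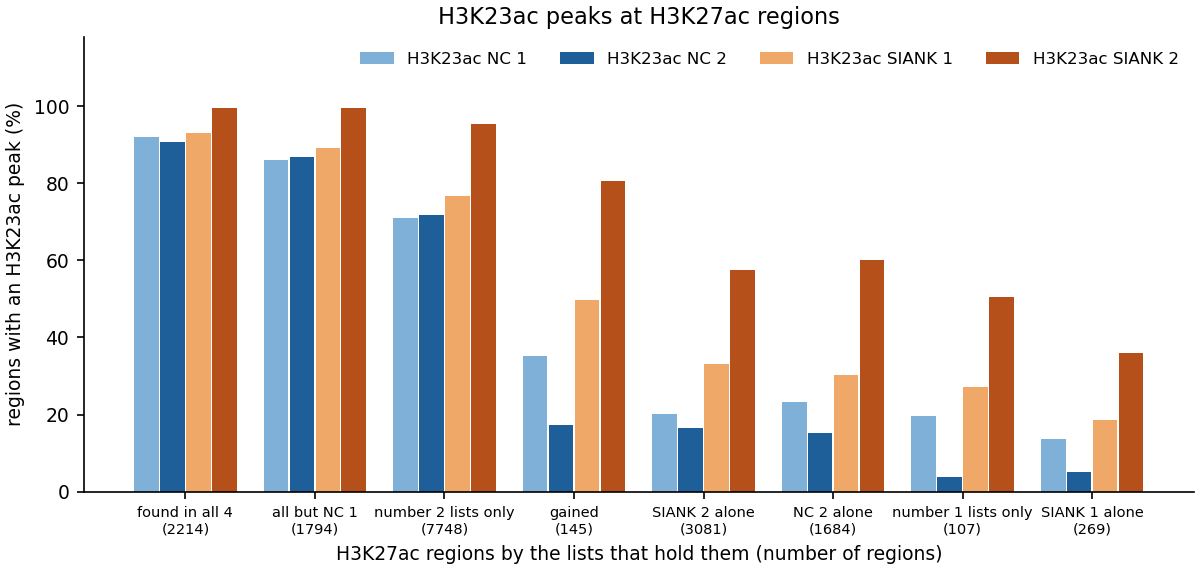
Percent of H3K27ac regions that overlap an H3K23ac peak of NC 1, NC 2, SIANK 1 or SIANK 2 (vertical axis), for sets of regions named by the H3K27ac lists that hold them, with the number of regions in brackets. H3K23ac SIANK 2 is the highest bar in every set plotted, including the regions of NC 2 alone (60.2%).

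Gained regions lay about as far from the regions of all 4 lists as other regions did. For them the median distance to the nearest region of all 4 lists was 158 kb, against 149 kb over all regions, and 10.4% against 8.54% lay within 10 kb of one. For the 1794 regions of every list but NC 1 the median was 143 kb. The 70 regions longer in both numbers had a median of 274 kb, against 159 kb for the 1998 regions with 1 peak in each list.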

How the data were processed

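The authors deposited 1 peak list per library, and per the file headers each gives chromosome, start, end and length in bp, with no score or count. In each entry the length is the number of bases from start to end, both included. BWA and deepTools appear in the submitters' processing notes with no step assigned to either. Build, caller, calling threshold and control are not given in the sources used. Groups came from the treatment label and numbers from the titles.

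Peaks overlapping by at least 1 bp were merged, which gave the same 17378 regions as bedtools 2.31.1, and the counting and length ratios were tested on simulated lists. Log2 peak number and log2 geometric mean length were compared by a two-sided exact permutation test over the condition labels (6 arrangements, threshold 0.05). All else is description, since 1 library a group allows no test, and intervals of shares are exact binomial (Clopper-Pearson). The members, sets and named regions were chosen with earlier results of these data known. Named regions were up to 10 gained, 10 lost, 5 of all 4 lists, 5 of each number only, ranked by their lowest percentile of peak length, the 5 longest of all 4 lists, and the 5 most lengthened and 5 most shortened within both numbers. The text prints part of them.

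Alternatives were covered length, peaks of at least 500 bp, merging within 1000 bp, equal lists over the 4 or within a number, coverage of at least 50% of a region, chromosomes 1 to 20, regions of 2 lists, summed, median or mean lengths, a replicate block, and each library left out. Any normal IgG library was not analysed here. Software was scipy 1.17.1, numpy 2.4.6, pandas 2.3.3 and matplotlib 3.10.9 under Python 3.11.15.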

Additional observations from a re-analysis of the deposited data

How the results depend on the processing

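Of 69 values under alternatives, 47 stayed close, 19 moved and 3 reversed. Close means the same direction for a test, a factor of at most 1.5 for counts and chromosome differences, and the reported interval for median length ratios. Tests of 2 libraries against 2 could not pass 0.05, so their calls could not change. Leaving out 1 library at a time, the log2 ratio of peak number ran from −0.70 (without NC 1) to 1.71 (without NC 2), with −0.34 without SIANK 2, and that of peak length from −0.26 (without NC 1) to 0.63 (without NC 2). For peak length the regions were chosen anew from the remaining lists each time. Gained regions then ran from 232 to 3245 and lost regions from 40 to 1696. These counts are all among the values that moved, and a library left out loosens both definitions. With equal lists over the 4, 65 regions were gained and 33 lost. With equal lists within a number, 32 were gained and 35 lost, and number 1 had 745 SIANK-only and 726 NC-only regions. With peaks of at least 500 bp, 5 regions were lost and 93 were NC-only within number 1. The mean log2 length ratio in place of the median was 0.43 in number 1 and 0.0765 in number 2, and over regions with 1 peak in each of the 4 lists the number 2 median was 0.0317. The cause of these differences was not tested. By construction, equal lists draw the sides together and a library left out tends to raise the gained and lost counts.

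With the replicate number as a block (4 arrangements, smallest p 0.5), the log2 ratio of peak number was 0.50 and that of peak length 0.23, both with exact p = 0.5, and no call changed. Nothing in the labels says that a number marks a shared culture or day. Deviations from the condition means of same-numbered libraries correlated at r = 0.24 over presence at 17378 regions and 0.69 over log2 length at 1998 regions. List size also went with the number in both conditions, and whether that alone gives such correlations was not tested. The unknown depth limits every count of regions, since no value in the lists separates a missing peak from a missing mark.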

Other observations

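The sex chromosomes stood outside the comparison over chromosomes 1 to 20. Chromosome X held 28 peaks in NC 1, 56 in SIANK 1, 167 in NC 2 and 196 in SIANK 2, which is 1.06%, 1.16%, 1.19% and 1.27% of the lists. The ratio of SIANK over NC on chromosome X was 2.0 in number 1 (exact 95% binomial interval 1.25 to 3.27) and 1.17 in number 2 (0.95 to 1.45). The median peak on chromosome X was 681.5 bp in NC 1, 614.5 bp in SIANK 1, 669 bp in NC 2 and 666 bp in SIANK 2, so that SIANK 1 had the shorter median there, unlike on 19 of the 20 autosomes. Chromosome X held 3 of the 145 gained regions and none of the lost ones. Chromosome Y held 0 peaks in NC 1, 1 in SIANK 1, 1 in NC 2 and 2 in SIANK 2, and 1 gained region.

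Peaks were denser on chromosome 10 than on chromosome X in all 4 lists. Counted up to the last peak of any list in the series, chromosome 10 held 1.88 peaks per Mb in NC 1, 3.23 in SIANK 1, 10.8 in NC 2 and 11.7 in SIANK 2. Chromosome X held 0.175, 0.350, 1.04 and 1.23 peaks per Mb in the same order of libraries.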
